A study of Rattus norvegicus with 16 samples.

Results

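Immune checkpoint and costimulation genes encode the surface proteins that hold T cells back or add to their activation. The 9 genes described here were Cd274, Pdcd1lg2, Pdcd1, Ctla4, Lag3, Tigit, Havcr2, Icos and Cd28, found by symbol in the expression tables of rat dorsal root ganglia (DRG), and each matched 1 of the 21021 genes listed there. RNA had been sequenced from 16 samples in 4 groups of 4, taken from adult female Sprague-Dawley rats given Walker-256 mammary gland carcinoma cells into the left tibia (tumor cell implantation, TCI) 1, 7 or 14 days earlier, and from sham rats. The L3–L5 DRGs of the implanted side of 1 rat were pooled as 1 sample. The labels describe the sham injection as PBS and the methods describe boiled tumor cells. By the labels, sham DRGs were collected on day 14 and on no other day, and for days 1 and 7 the effect of TCI and the time since surgery cannot be told apart. No cells were sorted, so each value is the mean over all cells of the ganglia.

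T cells need a second signal beside their receptor, which CD28 gives on binding CD80 or CD86 and ICOS gives on binding its ligand. CTLA-4 competes with CD28 for the same ligands, and PD-1, encoded by Pdcd1, is engaged by PD-L1 and PD-L2, encoded by Cd274 and Pdcd1lg2. LAG-3, TIGIT and TIM-3, encoded by Lag3, Tigit and Havcr2, are further inhibitory receptors that appear on T cells and natural killer (NK) cells after activation, and TIM-3 is also found on myeloid cells. PD-L1 is made by many cell types, is induced by interferons, and has been described in sensory neurons of the DRG, where PD-1 signaling lowers excitability.

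Expression was given as FPKM, fragment counts scaled to transcript length and library size, which allows levels to be compared between genes per length. Values are given first over the 14 samples that the study kept, without sample 2 of day 1 and sample 3 of day 7, whose values follow separately. Sample 3 of day 7 stood apart through muscle RNA, with 18956 FPKM over 8 skeletal muscle genes against 8.9 to 19.4 FPKM in 14 of the others and 442.8 FPKM in sham sample 4, which was kept, and its median correlation with them was 0.928 against at least 0.950 for any other sample. The tables hold no read totals. Steps between low values of 19 genes, with 3 to 14 values behind each sample, put the depth at 0.918 to 1.1 times that of the median sample, a rough estimate. Neuronal markers such as Nefl and Uchl1 were far above every member in all groups, with sham means of 4552 and 2316 FPKM.

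The promoters of members are shown because Cd274 and the interferon-response genes were higher in the same groups. They are RefSeq sequences of build GRCr8, 250 bases before to 50 bases after the start of the gene, and 8 of the 9 members had an entry. The window of Cd274, chr1:236529982-236530281 on the + strand, held 1 match to GAAANNGAA, the core of an interferon-stimulated response element, read on the opposite strand and shown in capitals. The window of Havcr2, chr10:31383675-31383974 on the + strand, held 1 match to TTCNNNGAA, the interferon-gamma-activated site, also in capitals.

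Cd274: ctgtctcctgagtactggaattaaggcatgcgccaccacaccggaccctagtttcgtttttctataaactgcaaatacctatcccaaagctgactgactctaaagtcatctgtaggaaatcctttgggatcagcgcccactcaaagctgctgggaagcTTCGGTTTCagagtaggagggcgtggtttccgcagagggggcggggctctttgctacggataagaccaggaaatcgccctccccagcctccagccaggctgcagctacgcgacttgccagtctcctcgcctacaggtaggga
Havcr2: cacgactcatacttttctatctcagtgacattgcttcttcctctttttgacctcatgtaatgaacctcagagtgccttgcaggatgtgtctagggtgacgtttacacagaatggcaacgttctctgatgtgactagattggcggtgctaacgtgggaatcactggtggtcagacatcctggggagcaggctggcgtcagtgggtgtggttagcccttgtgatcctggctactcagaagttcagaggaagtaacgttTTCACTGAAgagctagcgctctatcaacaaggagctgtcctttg

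Both strands were searched. Of all 33469 promoters of the table, 9.71% held the first motif and 8.87% the second, so a match is common. The AP-1 motif TGACTCA and the NFAT core TGGAAA, held by 4.63% and 22.7% of all promoters, were not in any of the 8 windows. These are matches of letters in 1 window and say nothing of binding.

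In sham DRGs only Cd274 was clearly above the bottom of the scale. Its mean of 8 ± 0.446 FPKM (SD, n = 4) made up 90.8% of the summed FPKM of the 9 genes, ahead of Lag3 with 0.465 ± 0.107 and Cd28 with 0.188 ± 0.102 FPKM. These 3 did not overlap with one another over the sham samples. Icos, Tigit, Havcr2, Pdcd1lg2, Pdcd1 and Ctla4 followed with means from 0.0525 down to 0.005 FPKM, and each overlapped with the next in this order. Pdcd1lg2 stayed near zero, at 0.01 to 0.1 FPKM over all 16 samples, and is not taken further. On day 7 after TCI the gap between the first pair had closed. Cd274 and Lag3 overlapped at 11.2 ± 0.254 and 9.27 ± 3.55 FPKM (n = 3), and Cd274 made up 42.6% of the sum. On day 14 Cd274, with 61.4% of the sum, lay above Lag3 in every comparison of samples, by as little as 10.34 against 10.33 FPKM.

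**Figure D1:**
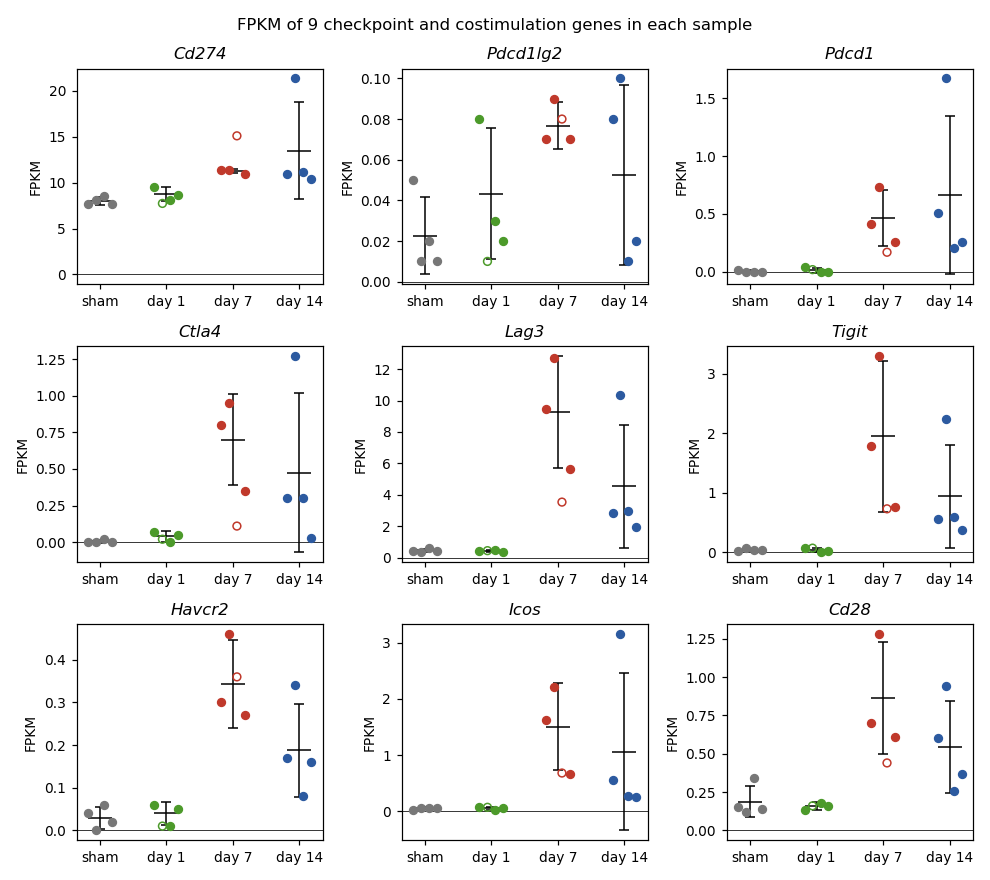
FPKM (linear axes, a separate scale for each gene) in every sample of sham and of days 1, 7 and 14 after TCI, with samples 1 to 4 from left to right in each group. Filled points are the 14 samples kept, open points the 2 left out, and black bars the mean ± SD of the filled points. Sham and day 1 lie close together for every gene but Pdcd1lg2, where day 1 sample 1 is at 0.08 FPKM. On day 14 the highest point is sample 2 in all 9 genes.

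On day 1 after TCI none of the 9 genes stood apart from sham. A filter that asked for 1 FPKM or more in 3 or more of the 14 samples was passed by 4 members, Cd274, Lag3, Tigit and Icos. Their log2 fold changes of FPKM + 1 lay between -0.05 and 0.12. Adjusted p was at least 0.995 in each (limma, Benjamini-Hochberg over 14023 genes). Over all genes tested 0% passed at an adjusted p of at most 0.05 in either direction, and 734 genes had an unadjusted p of at most 0.05, none of them a member. Of all genes tested 6.17% had every day 1 sample above every sham sample, and no member did. Lag3, Tigit and Icos passed the filter only through days 7 and 14, so that being called there is in part built into the filter, and the number called among those that passed is given as a description.

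Cd274, the ligand, had the highest level of the members and the smallest ratio to sham of the 4 in the fit. It stood at 7.68, 8.12, 8.58 and 7.62 FPKM in sham and at 9.56, 8.06 and 8.68 FPKM on day 1. On day 7 it was at 11.38, 11.40 and 10.95 FPKM and on day 14 at 10.96, 21.33, 11.12 and 10.34 FPKM. Every sample of days 7 and 14 was above every sham and day 1 sample, and of the day 14 samples 2 lay within the narrow range of day 7, 1 below it and 1 far above it. The ratio of means to sham was 1.41 on day 7 and 1.68 on day 14. The log2 fold change was 0.62 (SE 0.17, limma adjusted p = 0.0239) on day 14, which passed 0.05, and 0.45 (SE 0.18, adjusted p = 0.107) on day 7, which did not. Both calls turned on how the spread was estimated. Without sample 2 of day 14, at 21.33 FPKM, the day 14 value was 0.39 with an adjusted p of 0.0013 and the day 7 value of 0.45 had an adjusted p of 0.000198. With only the groups compared in the fit, adjusted p was 0.000798 on day 7 and 0.086 on day 14. Without sham sample 1, 2 or 4 the day 14 adjusted p was 0.0618, 0.0539 or 0.0569. With all 16 samples, day 7 sample 3 at 15.08 and day 1 sample 2 at 7.73 FPKM included, Cd274 rose on day 7 by 0.54 with an adjusted p of 0.0362.

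Lag3, an inhibitory receptor that binds MHC class II, had the largest log2 fold change. Its sham values were 0.45, 0.39, 0.62 and 0.40 FPKM and its day 1 values 0.41, 0.49 and 0.34 FPKM. On day 7 it reached 9.45, 12.72 and 5.63 FPKM, and on day 14 it was at 2.86, 10.33, 2.99 and 1.95 FPKM. All samples of days 7 and 14 lay above all of sham and day 1, while days 7 and 14 overlapped through sample 2 of day 14. The ratio of means to sham was 19.9 on day 7 and 9.75 on day 14, or 5.59 without that sample. Lag3 rose by a log2 fold change of 2.75 on day 7 (SE 0.36, limma adjusted p = 0.000296) and by 1.70 on day 14 (SE 0.33, adjusted p = 0.00525). In this limma fit it was the only member past the study's cut-offs, and it passed them on day 7 only. These ask for a log2 fold change of 1 or more with an adjusted p no higher than 0.001. The study applied them to a different test, DEGseq2 by its methods, so the calls here are not the study's own. Upward, 1.83% of all genes tested passed these cut-offs on day 7 and 0.642% on day 14. Leaving out any 1 of the 4 sham samples, or day 7 sample 1 or 2, put Lag3 outside the 0.001 limit, and its day 7 adjusted p ranged from 1.14e-06 to 0.00249 over the 14 fits with 1 sample left out. At the limit of 0.05 it stayed called on both days in all 14. Sample 3 of day 7, left out by the study, had 3.54 FPKM and sample 2 of day 1 had 0.45 FPKM.

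Tigit, whose product binds PVR and nectins, was at 0.03 to 0.07 FPKM in sham and at 0.07, 0 and 0.03 FPKM on day 1. It reached 1.79, 3.29 and 0.76 FPKM on day 7 and 0.56, 2.23, 0.60 and 0.37 FPKM on day 14. No sample of either later day came near the sham range. Tigit rose by 1.4 on the log2 scale on day 7 (SE 0.29, limma adjusted p = 0.00529), and its day 14 value of 0.80 (SE 0.27, adjusted p = 0.0634) did not pass. Since 1 FPKM was added before taking logs, these values understate the ratio of means, 43.3 on day 7 and 20.9 on day 14, which in turn rests on sham values of a few hundredths that the tables give to 2 decimals. Without sample 2 of day 14 the latter ratio was 11.3, and Tigit, then under the filter, had 0.53 on day 14 and 1.4 on day 7 in the fit without a filter (adjusted p = 0.18 and 0.000917). With 0.1 FPKM added instead, the log2 fold change was 3.61 on day 7 and 2.55 on day 14, with adjusted p of 0.000675 and 0.00521, so that the day 14 call was made and day 7 passed the study's cut-offs. The day 14 call was also made without day 7 sample 4 or day 14 sample 4 (adjusted p = 0.0336 and 0.0434). The samples left out had 0.07 FPKM on day 1 and 0.73 FPKM on day 7.

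Icos, a costimulatory receptor of activated and regulatory T cells, had 0.03 to 0.06 FPKM in sham and 0.02 to 0.08 FPKM on day 1. It was at 1.63, 2.21 and 0.67 FPKM on day 7 and at 0.56, 3.15, 0.27 and 0.26 FPKM on day 14. All 7 samples were above sham, and sample 2 of day 14 stood far above the next of its group, at 0.56 FPKM. Icos rose on day 7 by 1.20 (SE 0.34, limma adjusted p = 0.0281). Its day 14 value was 0.77 (SE 0.32, adjusted p = 0.122). Without sample 2 of day 14 Icos was under the filter, and without a filter it had 0.37 on day 14 and 1.20 on day 7 (adjusted p = 0.238 and 0.000503). The day 7 call was lost without any 1 of the 4 sham samples, with adjusted p from 0.0531 to 0.0614, and under quantile normalization, with 0.82 and an adjusted p of 0.112. With 0.1 FPKM added, the day 14 value was 2.27 with an adjusted p of 0.0243. The samples left out had 0.07 FPKM on day 1 and 0.68 FPKM on day 7.

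At an adjusted p of at most 0.05, then, 3 of the 4 members that passed the filter were called higher on day 7, where 14.5% of all genes tested were higher and 3.45% lower, and 2 of 4 on day 14, where the shares were 11.9% and 3.21%. Lag3 was called on both days, Tigit and Icos on day 7 and Cd274 on day 14. Without day 7 sample 1 or 2, Tigit and Icos no longer passed the filter and only Lag3 was called on day 7. Without day 14 sample 2 they did not pass it either, and Lag3 and Cd274 were called on both days. In the 11 fits that kept them, Tigit was called on day 7 in all 11 and Icos in 7. Every sample above every sham sample was seen for all 4 members on both days, and for 23.8% of all genes tested on day 7 and 13.8% on day 14. Under quantile normalization the median log2 fold change of all genes on day 7 went from 0.04 to -0.07, and 1341 genes were called higher and 2320 lower in place of 2028 and 484.

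**Figure D2:**
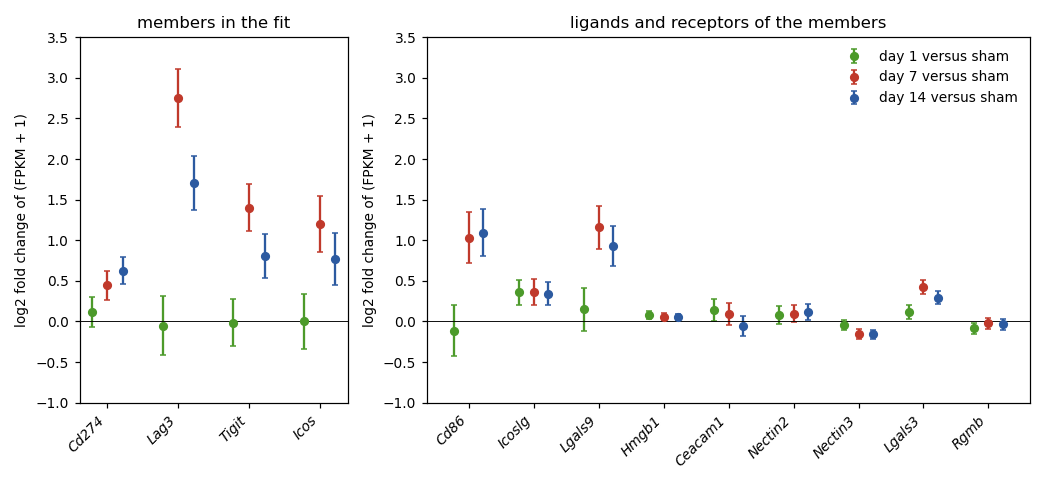
Log2 fold change of FPKM + 1 against sham on days 1, 7 and 14 after TCI, for the 4 members in the fit and for 9 ligands and receptors of the members. Points are limma estimates over 14 samples, and bars are ± 1 SE. Lag3 is highest on day 7 at 2.75, and of the ligands and receptors Cd86, Lgals9 and Lgals3 passed an adjusted p of 0.05 on both later days.

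Pdcd1, Ctla4, Havcr2 and Cd28 stayed under the filter and were compared one by one, by two-sided exact permutation tests of mean FPKM against sham. The smallest p these tests allow is 0.0286, and 12 such tests were made, with no adjustment. Only members with at least 0.2 FPKM in 3 samples were tested, a level they reached almost wholly on days 7 and 14 (1 sham sample of Cd28 apart), so a difference from sham is in part built into their choice here too. Among the 2451 genes under the filter with at least 0.2 FPKM in 3 samples, every sample lay above every sham sample in 3.39% on day 1, 17.9% on day 7 and 9.87% on day 14.

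Pdcd1, encoding PD-1, was listed at 0.02, 0, 0 and 0 FPKM in sham and at 0.04, 0 and 0 FPKM on day 1. It had 0.41, 0.73 and 0.26 FPKM on day 7 and 0.51, 1.67, 0.21 and 0.26 FPKM on day 14. The groups did not overlap with sham on either day (exact permutation p = 0.0286 each). Ctla4 was listed at 0, 0, 0.02 and 0 FPKM in sham and at 0.07, 0 and 0.05 FPKM on day 1. It reached 0.80, 0.95 and 0.35 FPKM on day 7 (exact permutation p = 0.0286) and 0.30, 1.27, 0.30 and 0.03 FPKM on day 14 (exact permutation p = 0.0286). One day 14 sample was thus hardly above the sham sample at 0.02 FPKM and below 2 day 1 samples. No fold is given for these genes, since most of their sham values were listed at 0.

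Havcr2, encoding TIM-3, stood at 0.04, 0, 0.06 and 0.02 FPKM in sham and 0.06, 0.01 and 0.05 FPKM on day 1. It had 0.30, 0.46 and 0.27 FPKM on day 7 and 0.17, 0.34, 0.08 and 0.16 FPKM on day 14 (exact permutation p = 0.0286 for each day). It had the lowest day 7 mean of these 4 genes, with all 7 samples above sham. Cd28 was at 0.15, 0.12, 0.34 and 0.14 FPKM in sham and 0.13, 0.18 and 0.16 FPKM on day 1. On day 7 it was at 0.70, 1.28 and 0.61 FPKM, 4.60 times the sham mean (exact permutation p = 0.0286). On day 14 it was at 0.60, 0.94, 0.26 and 0.37 FPKM, where 1 sample fell within the sham range (exact permutation p = 0.0571). On day 1 none of the 4 tests reached 0.05. The 2 samples left out had 0.02 and 0.17 FPKM of Pdcd1, 0.02 and 0.11 of Ctla4, 0.01 and 0.36 of Havcr2, and 0.16 and 0.44 of Cd28, in the order day 1 and day 7, and adding them left each exact p of days 7 and 14 as it was.

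When all 20571 genes with a value above 0 entered the limma fit without a filter, 6 of the 9 members were called higher on day 7 at an adjusted p of at most 0.05, against 10.4% of all genes in that fit. They were Lag3, Tigit, Icos, Havcr2 (0.38, adjusted p = 0.0024), Cd28 (0.64, adjusted p = 0.0123) and Ctla4 (0.74, adjusted p = 0.0333). Pdcd1 had 0.53 with an adjusted p of 0.135 and of 0.0026 without sample 2 of day 14. The call of Ctla4 was lost without any 1 sham sample or without day 7 sample 1 or 2 (adjusted p = 0.0647 to 0.129) and with all 16 samples (adjusted p = 0.0704). That of Cd28 was lost without day 7 sample 2 (adjusted p = 0.0562). On day 14, 2 of the 9 were called, Lag3 and Cd274, against 7.92% of all genes, and Havcr2 and Pdcd1 were just outside with adjusted p of 0.0505 and 0.0597. The scale weighed heavily here. With 0.1 FPKM added in place of 1, a repeat chosen after seeing the data, 7 of the 9 were called on each day, against 10.7% of all genes on day 7 and 8.71% on day 14. Pdcd1 was then called on both days (2.35 and 2.49, adjusted p = 0.00611 and 0.0037), Cd274 on day 14 alone and Cd28 on day 7 alone. Pdcd1lg2 was called on neither.

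Between days 14 and 7 none of the 4 members in the fit was called at an adjusted p of 0.05, where 0.0998% of all genes tested did in either direction and 1396 genes had an unadjusted p of at most 0.05. Lag3 was the nearest, at -1.05 (SE 0.36, limma adjusted p = 0.345, unadjusted p = 0.0123). This rested on sample 2 of day 14. Without it the Lag3 difference was -1.46 with an adjusted p of 0.00595 and was called, and Lag3 remained higher than sham on day 14 (1.29, adjusted p = 0.00115). The difference of Cd274 was -0.05 without that sample and 0.18 with it, and was called in neither fit. Sample 2 was the highest of day 14 in all 9 genes. It was also the highest of its group in T cell markers, at 97.7 FPKM summed against 33.7 to 43.8 FPKM in the other 3, and in macrophage markers, at 1805 FPKM against 515 to 669.

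The genes listed for proteins that bind the members changed in part. The list held no MHC class II gene, although LAG-3 binds MHC class II. Of 12 ligands and receptors 9 were tested, and 3 rose on both later days, where 14.5% and 11.9% of all genes tested were called higher. Cd86, the ligand of CD28 and CTLA-4, rose by 1.03 on day 7 and 1.09 on day 14 (limma adjusted p = 0.0367 and 0.0236), from a mean of 0.498 FPKM in sham to 2.06 and 2.63 FPKM. Its samples ran from 1.66 to 2.3 FPKM on day 7 and from 1.13 to 6.23 FPKM on day 14. Cd86 passed the filter only through days 7 and 14. Lgals9, a ligand of TIM-3, rose by 1.16 and 0.93 (adjusted p = 0.00862 and 0.0233), from 9.002 to 21.5 and 19.3 FPKM. Lgals3, a galectin bound by LAG-3 and abundant in macrophages and injured neurons, rose by 0.42 and 0.29 (adjusted p = 0.00514 and 0.0267). The ICOS ligand Icoslg had 12.9 FPKM in sham and 16.8 FPKM on both days, with values of 0.36 and 0.34 (adjusted p = 0.131 and 0.127). Nectin2, Nectin3, Ceacam1, Hmgb1 and Rgmb had values between -0.16 and 0.12 that did not pass. Cd80 was not tested, with means of 0.388 FPKM in sham, 0.833 on day 7 and 0.635 on day 14, Fgl1 was at or near 0 and Pvr was not found by symbol. The median of the 9 was 0.10 on day 7 and 0.12 on day 14, beside medians of 0.04 and 0.03 over all genes tested.

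Of 30 other co-inhibitory and costimulatory genes 11 were tested, of which 7 rose on day 7 and 5 on day 14, and none fell. Their median was 0.72 on day 7 and 0.35 on day 14. Beside these counts, 14.5% of all genes tested were called higher on day 7 and 11.9% on day 14. Tnfrsf14, the receptor HVEM, rose by 2.58 and 2.45 (limma adjusted p = 0.000291 and 0.000602). Cd27, a costimulatory receptor of lymphocytes, rose by 1.62 and 1.15 (adjusted p = 0.00206 and 0.0126). Cd6, a T cell surface protein, rose by 1.43 and 1.28 (adjusted p = 0.000846 and 0.0018). Among 17 tested genes of T cell receptor and costimulatory signaling 11 rose on each day, beside the same shares, and the median was 1.08 and 0.91. Lck, the kinase that starts receptor signaling, rose by 2.28 and 1.70 (adjusted p = 0.000425 and 0.00271), Ptpn6, a phosphatase used by inhibitory receptors, by 2.04 and 1.44 (adjusted p = 0.00162 and 0.011), and the adaptor Lat by 1.90 and 1.61 (adjusted p = 0.000748 and 0.00223).

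Transcription factors of activated, exhausted and regulatory T cells changed in part. Of 8 tested, 4 rose on day 7 and 2 on day 14, with a median of 0.42 and 0.36. The shares called higher over all genes tested were 14.5% and 11.9%. Tbx21, encoding T-bet, rose by 1.37 and 0.95 (limma adjusted p = 0.000649 and 0.00542). Batf rose by 1.21 on day 7 (adjusted p = 0.00947) and had 0.75 on day 14 (adjusted p = 0.0703), and Tcf7 rose by 0.71 and 0.54 (adjusted p = 0.0105 and 0.0359). Tox, linked to exhaustion, had 0.02 and 0.15 and did not pass. Foxp3, which marks regulatory T cells, was not tested, with means of 0.0975 FPKM in sham, 0.14 on day 7 and 0.318 on day 14. Its day 14 samples ran from 0.15 to 0.7 FPKM.

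The list of interferon-gamma and its response genes, among which Cd274 is usually counted, also held the receptor genes Ifngr1 and Ifngr2 and the kinase genes Jak1 and Jak2. The median log2 fold change of this mixed list was above that of Cd274 on both days. Of 10 tested, 7 rose on day 7 and 6 on day 14, with a median of 1.37 and 1.30. Over all genes tested 14.5% and 11.9% were called higher on these days. The chemokine genes Cxcl9 and Cxcl10 rose by 3.44 and 3.38 on day 7 (limma adjusted p = 0.00119 and 0.000877) and by 3.99 and 2.82 on day 14 (adjusted p = 0.000691 and 0.00268). Gbp2, a guanylate-binding protein gene, rose by 3.12 and 2.81 (adjusted p = 0.000878 and 0.00185). Day 14 levels were widely spread, at 23.55 to 199.13 FPKM in Cxcl9, 13.04 to 99.43 in Cxcl10 and 30.26 to 201.37 in Gbp2. On day 7 Cxcl9 ran from 31.33 to 40.93 FPKM. Ifng itself was listed at 0 in every kept sample of sham and day 1 and had means of 0.377 FPKM on day 7 and 0.328 on day 14. Its day 14 samples ran from 0.08 to 0.98 FPKM. On day 1 no gene of these 5 lists was called, at medians between -0.02 and 0.08.

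Markers of the cells that carry these receptors moved with the members. All 9 tested of 11 T cell markers rose on both days, and their summed level was 5.5 to 8.3 FPKM over the samples of sham and day 1, 40.6 to 93.2 FPKM on day 7 and 33.7 to 97.7 FPKM on day 14. Cd8b was at 0 in all sham samples. In sham most of the sum was Cd4, at 5.92 FPKM, while Cd8a was at 0.0725 FPKM. All 5 tested NK and cytotoxic markers rose on day 7 and 3 on day 14. These 5, and every tested T cell marker except Cd4, stayed below 1 FPKM in sham and on day 1. They passed the filter only through days 7 and 14, so that their calls are in part built into it. This also held for the myeloid marker Itgam and the dendritic cell marker Itgax. Of all genes tested, 14.5% were called higher on day 7 and 11.9% on day 14. All 12 macrophage and myeloid markers rose on day 7 and 10 on day 14, and their sum went from 66.8 to 127.6 FPKM in sham to 924.5 to 1234 FPKM on day 7 and 515 to 1805 FPKM on day 14. Of 3 dendritic cell markers tested, 1 rose on day 7 (Itgax), 1 fell (Flt3, by 0.19 on the log2 scale, limma adjusted p = 0.0355), and 2 rose on day 14. B cell markers stayed at 1.1 FPKM summed or less in every sample. Of 7 neuronal markers none rose and 2 fell on each day, Nefl and Snap25. One of 5 endothelial markers rose on day 7 and none on day 14, and of 6 markers of Schwann cells and satellite glia 1 fell on day 14. In RNA of whole ganglia, more cells of a type and more RNA per cell cannot be told apart, and the part of these markers in the members' levels was not tested.

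**Figure D3:**
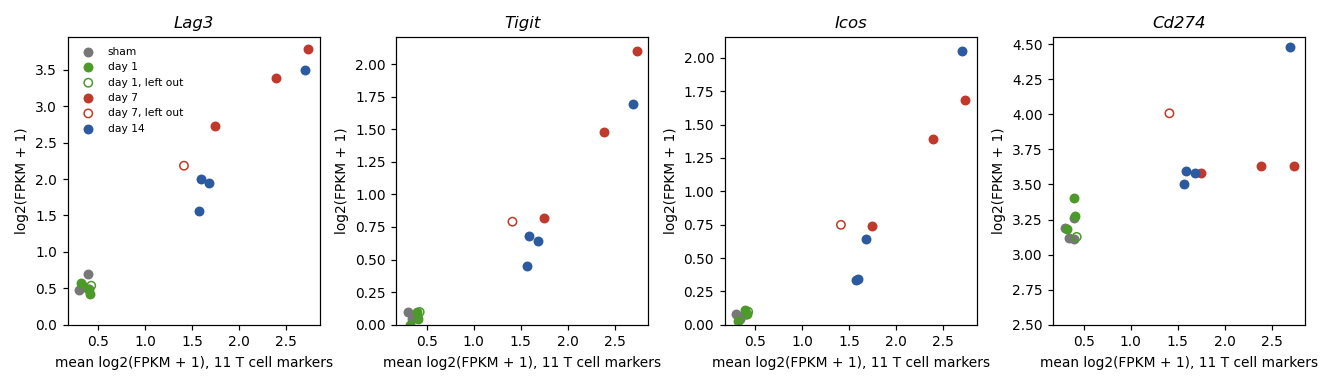
Level of Lag3, Tigit, Icos and Cd274, as log2 of FPKM + 1, against the mean of the same quantity over 11 T cell markers, 1 point a sample, with the samples left out as open points. The 3 samples with the highest T cell markers, at means of 2.39 to 2.74, are the highest in Lag3, Tigit and Icos too, whereas Cd274 is nearly level over days 7 and 14 apart from day 14 sample 2 and the open day 7 point.

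Over the 7 kept samples of days 7 and 14 the T cell marker mean was 2.39 to 2.74 in 3 samples, day 7 samples 1 and 2 and day 14 sample 2, and 1.57 to 1.75 in the other 4. With such a gap no correlation is given. The same 3 samples were the highest of the 7 in 7 of the 9 members, Pdcd1 and Pdcd1lg2 being the exceptions. This order was not particular to T cell markers. These 3 samples were also the highest in summed macrophage markers, at 989 to 1805 FPKM with the next at 924.5. The same held for NK and cytotoxic markers (20.6 to 34.6 FPKM, next 16.15) and dendritic cell markers (12.7 to 19.8 FPKM, next 11.8). For Lag3, Tigit, Icos and Ctla4 the step between the third and the fourth sample was wide, as in Icos with 1.63 against 0.67 FPKM. For Cd274 it was small, at 11.38 against 11.12 FPKM. Sample 3 of day 7, left out by the study, had the lowest T cell marker sum of the later days, 27.1 FPKM, and yet the highest Cd274 of day 7.

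Set against the summed T cell markers of the same sample, days 7 and 14 overlapped in 6 of 8 members, Pdcd1lg2 being left out. Lag3 was at 13.4 to 13.9% of the T cell marker sum in the 3 samples of day 7 and at 4.85 to 10.6% in the 4 of day 14. Havcr2 was at 0.426 to 0.665% on day 7 and 0.237 to 0.398% on day 14. In these genes the days did not overlap, with an exact permutation p of 0.0571 for Lag3 and 0.0286 for Havcr2, two-sided and unadjusted over 8 such tests. Among the other 6, Tigit was at 1.87 to 3.53% on day 7 and 0.92 to 2.28% on day 14, Pdcd1 at 0.583 to 0.783% and 0.623 to 1.71%, and Ctla4 at 0.862 to 1.14% and 0.0746 to 1.30%, and the exact permutation p of these 6 genes ran from 0.114 to 0.514. The sum itself changed its makeup. Cd4, which macrophages of the rat also express, made up 82.2 to 91.6% of it in sham, 29.4 to 44.6% on day 7 and 40.0 to 59.0% on day 14. With Cd4 left out, a choice made after seeing the data, Lag3 was at 19.3 to 25.03% on day 7 and 11.8 to 17.6% on day 14 and the days still did not overlap (exact permutation p = 0.0286). Havcr2 then overlapped, at 0.649 to 1.20% and 0.42 to 0.971% (exact permutation p = 0.514).

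**Figure D4:**
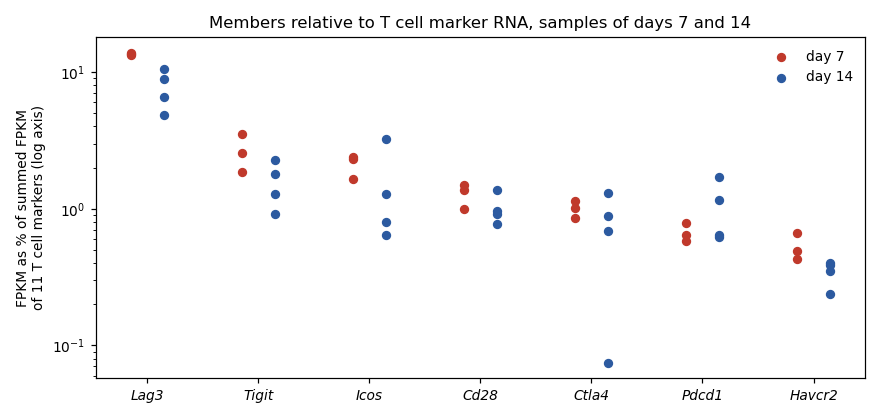
FPKM of 7 members as a percentage of the summed FPKM of 11 T cell markers in the same sample (log axis), with 1 point for each kept sample of day 7 and day 14. Lag3 lies highest, with all day 7 points at 13.4 to 13.9% above all day 14 points, and the days overlap in Tigit, Icos, Cd28, Ctla4 and Pdcd1.

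The genes most like each member over the 14 samples, by Pearson r of log2(FPKM + 1), differed from member to member. For Cd274 they were Il12rb1 (r = 0.973), Eif2ak2 (0.970) and Ddx60 (0.970), the latter pair interferon-induced antiviral genes. For Lag3 they were Nkg7 (0.992), a gene of cytotoxic granules, Hk3 (0.991) and Tbx21 (0.989). For Tigit they were Ms4a4c (0.992), Dusp2 (0.988) and LOC690862 (0.983), and for Icos they were Irg1 (0.984), LOC499229 (0.981) and Grn (0.979). Many genes share these patterns, which are set by the contrast of 7 samples of sham and day 1 with 7 of days 7 and 14. At an r over 0.9 there were 192 genes for Cd274, 611 for Lag3, 403 for Tigit and 481 for Icos, so these values are descriptions only.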

How the data were processed

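FPKM values, rounded to 2 decimals, were deposited by the authors as 1 table per sample. Per the methods, reads of low quality were removed, the rest mapped with HISAT/Bowtie2, and genes quantified with RSEM. The labels list CASAVA 1.4 and Bowtie2 and describe Illumina protocols, while the methods name BGISEQ-500. The genome build and annotation are not given in the sources used here. All 9 Entrez identifiers were found in a RefSeq table of GRCr8, used for names only.

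Groups came from the labels. No samples were copies of one another, since no pair shared more than 2.78% of values above 0. The 14023 of 21021 genes that reached 1 FPKM in 3 or more of 14 samples were tested on log2(FPKM + 1) by limma 3.58.1 (R 4.3.3, 4 groups in 1 fit, eBayes with trend, Benjamini-Hochberg). On simulated data it recovered 188 of 199 changed genes at the study's cut-offs with 0 false calls. The noise there was independent between genes, and the shift added on day 7 was larger than that of Cd274, Tigit or Icos. The simulation thus checked that the fit ran correctly and does not measure how reliable the calls of members are. Members under the filter were tested by exact permutation (Python 3.11.15, numpy 2.4.6) where they reached 0.2 FPKM in 3 samples. Fragments behind a value are unknown, so no counting error is given. Named were all members, all tested ligands and receptors, the 3 genes of each other companion list with the largest day 7 change, the 3 genes most like each member in the fit, and marker genes as examples. Tox, Foxp3, Cd80, Fgl1, Ifng, Cd8b, Snap25 and the untested genes were named after their values were seen. The members and lists were chosen with earlier results of these data known. A correlation of members with marker means was planned and is not given because the samples fell into separate clusters. Alternatives were all 16 samples, only the groups compared, no filter, quantile normalization, no trend, a filter at a mean of 5 FPKM, 0.1 FPKM added, a replicate block and each sample left out. Repeats of the fit without a filter, and T cell marker sums without Cd4, were added after seeing the data.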

Additional observations from a re-analysis of the deposited data

Results flagged for a closer look

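In 36 groups of 4 samples, 9 held a sample whose gap to its nearest neighbor was more than 0.829 of the whole range of the group. Chance gives about 1 in 20 where groups are independent and values normal. These groups are 9 genes in the same samples, so 1 sample can be flagged in several genes. The count therefore cannot be weighed against that rate. Sample 2 of day 14 was such a sample in 4 genes, with 21.33 FPKM of Cd274 (next 11.12), 10.33 FPKM of Lag3 (next 2.99), 2.23 FPKM of Tigit (next 0.60) and 3.15 FPKM of Icos (next 0.56). The report gives the fitted values without it. Sample 3 of day 7, left out by the study, was one for Cd274, with 15.08 FPKM against 11.40 FPKM in the next. In sham the isolated values were 0.02 FPKM of Pdcd1 in sample 1 and 0.02 FPKM of Ctla4 in sample 3, each with the other 3 listed at 0, 0.03 FPKM of Icos in sample 1 against 0.06 FPKM in the others, and 0.34 FPKM of Cd28 in sample 3 against 0.15 FPKM in the next. The first 3 of these differ from their group by only 2 or 3 units of the last decimal of the tables.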

How the results depend on the processing

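Groups of 3 or 4 samples and levels under 1 FPKM limit most of these values, and the number of fragments behind them is unknown. Past the study's cut-offs, day 7 gave 1 member, 0 with a mean of at least 5 FPKM, 2 with 0.1 FPKM added, 3 at an adjusted p of at most 0.05 with a log2 fold change of at least 1, and 0 to 1 with 1 sample left out. Day 14 gave 0, and 1 with 0.1 FPKM added or at the looser p, and 0 whichever sample was left out. At an adjusted p of at most 0.05, day 7 gave 3 members, 4 with all 16 samples, 2 with only the groups compared or under quantile normalization, 6 without a filter, 0 with a mean of at least 5 FPKM and 1 to 3 with 1 sample left out. Day 14 gave 2, 1 with only the groups compared (Cd274 adjusted p = 0.086) or with a mean of at least 5 FPKM, 4 with 0.1 FPKM added and 1 to 3 with 1 sample left out. Day 14 against day 7 gave 0, and 0 to 1 with 1 sample left out. A mean of at least 5 FPKM left only Cd274 in the test.

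Numbers are shared between groups, and so few pairs cannot tell whether they pair the samples. Over 18 same-number pairs r was -0.0952 to 0.269 and over 0.1 in 4. Over 55 pairs of different number r was -0.326 to 0.41 and over 0.1 in 8. The replicate block left the day 7 counts at 1 and 3, and Tigit was called on day 14 (adjusted p = 0.0213). Reversed signs were near zero and not called. On day 1 the block gave 0.14 for Lag3 and 0.15 for Tigit, and quantile normalization and 0.1 FPKM added gave -0.013 and -0.0068 for Icos. Leaving out 1 sample gave, on day 1, -0.042 to 0.0068 for Tigit and -0.0174 to 0.024 for Icos and, without a filter, -0.0071 to 0.021 for Pdcd1, -0.00014 to 0.035 for Havcr2 and -0.061 to 0.025 for Cd28. On day 14 against day 7 it gave -0.053 to 0.27 for Cd274 and, without a filter, -0.14 to 0.24 for Pdcd1, and with Cd4 left out of the T cell marker sum the share of Cd28 was 0.00565 percentage points higher in place of a difference of -0.285. For these the cause was not tested. Outside day 1, 444 other values of single members kept their direction and their side of 0.05, 24 became called and 18 lost their call.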
